A study of Mus musculus with 14 samples.

Results

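The folding and quality control machinery of the endoplasmic reticulum was followed across the differentiation of C2C12 cells, an immortalized mouse myoblast line. The module held 33 genes, chosen by name: the gene symbol in the count table had to equal one of a written list of chaperones, oxidoreductases, degradation factors, stress sensors, translocation factors and a coat protein of vesicle export. The members, and the lists set beside them below, were chosen with earlier results of these data known. Shares set beside those of all genes therefore describe the module and are no test of it. All 33 were found among the 49671 genes of the table, and 32 passed the filter on low counts. RNA sequencing of poly(A) RNA gave 14 libraries in 7 groups of 2. Day 0 cells grew in DMEM with 20% fetal calf serum (FCS). The other groups were taken after 2 or 7 days in a differentiation medium, which the labels call DM1, DM2 and DM3. DM1 held 2% horse serum (HS) and is the classical muscle medium. DM2 held 10% FCS and a pro-adipogenic cocktail of 1 µg/ml insulin, 0.5 mM IBMX (an inhibitor of phosphodiesterases), 0.5 µM dexamethasone (a glucocorticoid) and 2 µM rosiglitazone (an agonist of PPAR-gamma). DM3 held 2% HS with the same cocktail, so DM3 and DM1 differ by the cocktail, and DM2 and DM3 by the kind and the amount of serum. The replicates are numbered, but nothing says that they came from separate cultures, so the p-values reflect only how far these libraries lie apart, and that spread may be technical.

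Proteins bound for secretion or for membranes enter the endoplasmic reticulum through the Sec61 channel and are folded there by chaperones, lectins and disulfide isomerases. Those that fail to fold are handed to a ubiquitin ligase in the membrane and destroyed by the proteasome. When unfolded protein builds up, the membrane sensors Atf6, Ern1 and Eif2ak3 start the unfolded protein response, in which Atf6 and Xbp1 act as transcription factors on chaperone and degradation genes and Eif2ak3 slows translation and raises Atf4. Differentiating muscle cells are a known setting for this response, and secretory cells run it at a high level.

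The element through which Atf6 and Xbp1 are known to act, the ER stress response element (ERSE), was looked for in the promoters of the members, from 250 bases before to 50 bases after each gene start, in the RefSeq promoters of GRCm38.p6. The letters searched were CCAAT and CCACG with any 9 bases between them for ERSE, ATTGG and CCACG with any 1 base between them for its variant ERSE-II, TGACGTGG for the Xbp1 element UPRE and TTGCATCA for an Atf4 element, each on both strands. ERSE and ERSE-II share the letters CCACG, and the UPRE holds them on its other strand, but the matches found in the members lay apart from each other. RefSeq promoters were held for 27 members, and Atf6, Derl1, Hyou1, Manf, Ostc and Sec61a1 were not among them. ERSE was found in 10 of the 27 members (37.0%), against 39 of all 32851 promoters (0.119%, the members' own included). The 27 members held 29 of these promoters, so the share of members counts genes and the other share promoters. Most members were chosen by name from the kinds of gene on which Atf6 and Xbp1 are known to act. The higher share is therefore no test of the module. The 10 were Calr, Canx, Creld2, Derl3, Dnajc3, Ero1lb, Hsp90b1 (with 2 matches), Hspa5, Pdia6 and Syvn1. ERSE-II was found in Dnajb11 and Herpud1 (2 of 27, and 12 of all 32851 promoters, 0.0365%). The UPRE was in 0 of 27 members and in 0.676% of all promoters, and the Atf4 element was in Herpud1 alone (0.895% of all promoters). A match is a stretch of letters, not a shown binding site, and 0 matches says only that these letters are not in that window. The stretches below show the match in chaperones with large changes over time (Hspa5 and Calr) and smaller ones (Hsp90b1 and Canx), in the disulfide gene Creld2, in the degradation gene Herpud1 and in Derl3, which was nearly silent. Capitals mark the match, ERSE-II in Herpud1 and ERSE in the others, where an ERSE on the strand opposite to the gene starts with CGTGG, and each line is written 5′ to 3′ on the gene's strand.
Hspa5, chr2:34772020-34772048, plus strand: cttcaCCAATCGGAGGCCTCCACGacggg
Calr, chr8:84847060-84847108, minus strand: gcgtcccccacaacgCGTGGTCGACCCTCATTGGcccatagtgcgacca
Hsp90b1, chr10:86705518-86705671, minus strand: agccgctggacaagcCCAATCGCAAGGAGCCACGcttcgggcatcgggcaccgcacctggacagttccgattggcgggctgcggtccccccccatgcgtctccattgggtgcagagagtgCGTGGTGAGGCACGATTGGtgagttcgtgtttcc
Canx, chr11:50325785-50325833, minus strand: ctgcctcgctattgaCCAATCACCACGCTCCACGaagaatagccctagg
Creld2, chr15:88819505-88819553, plus strand: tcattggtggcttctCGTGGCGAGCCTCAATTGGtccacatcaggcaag
Herpud1, chr8:94386362-94386402, plus strand: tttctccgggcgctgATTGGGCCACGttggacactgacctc
Derl3, chr10:75893227-75893275, plus strand: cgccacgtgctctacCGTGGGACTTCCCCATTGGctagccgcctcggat
The Hspa5 stretch lies inside the gene as Gencode draws it, and the other 6 lie before it.

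The libraries held 21907617 to 29784885 expected counts, which RSEM estimates and which need not be whole, and 17750 to 21111 genes with at least 1 count. DM3 day 2 replicate 2 stood apart, with the fewest genes detected and 0.584% of its counts in processed pseudogenes, so counts of members were also made without it. That pseudogene share was highest in DM2 at day 7, at 3.66 and 3.86%, against 2.99% or less elsewhere. The DM3 libraries of day 7 held the most mitochondrial mRNA, 5.44 and 5.01%, and the other 12 held 2.22 to 3.63%. Of the markers of the labelled cell type, Myod1 stood at 16.1 CPM (the count scaled to library size by the TMM method) or more in all 14 libraries, Myf5 at 42.0, Cdh15 at 218 and Des at 427 or more, and Pax7 at 0.739 or less. Both Myod1 and Des were lowest in DM2 at day 7, where Myod1 stood at 16.1 and 20.4 CPM against 116 and 102 in DM2 at day 2, and Des at 427 and 511 against 984 and 860.3. Myf5 stood there at 131 and 123 CPM against 301 and 277 in DM2 at day 2, and at 46.1 and 42.0 on day 0. Cdh15 went the other way, at 290 and 322 CPM in DM2 at day 7 against 218 and 223 at day 2. The 6 myotube markers together stood at 166 to 206 CPM at day 0, at 20957 to 21202 CPM in DM3 at day 7 and at 507 to 530 CPM in DM2 at day 7. In DM2 at day 7 Ttn went the other way, while the other myotube markers stood above day 0. Ttn stood at 159 and 198 CPM on day 0, at 146 and 186 in DM2 at day 2 and at 82.8 and 64.5 in DM2 at day 7. The 7 adipocyte markers together stood at 23.6 to 52.6 CPM over all libraries, with Adipoq, Plin1 and Cidec each under 1 CPM and Lep at 0 counts throughout. The 8 macrophage and leukocyte markers together stood at 1.39 to 7.04 CPM, highest in DM2 at day 7 through Cd68, with Adgre1 at 0 counts and Ptprc at 0.0420 CPM or less. Of 4 plasma cell markers only Sdc1 passed 1 CPM. The 3 endothelial markers together reached 3.11 CPM and the 4 epithelial ones 0.676 CPM.

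The module's genes were at their highest in DM2 at day 7. Together they took 0.685 and 0.651% of the scaled counts on day 0, 0.670 and 0.657% in DM1 on day 2, 0.780 and 0.935% in DM1 on day 7, 0.608 and 0.586% in DM2 at day 2, 1.98 and 1.73% in DM2 at day 7, and, in DM3, 0.651 and 0.641% on day 2 before 0.662 and 0.659% on day 7. Both DM2 libraries of day 7 lay above the other 12, and the DM2 libraries of day 2 were the lowest pair. From day 2 to day 7 in DM2 (quasi-likelihood test of edgeR, adjusted after Benjamini and Hochberg), 32 of 32 members tested rose and 0 fell, where 25.4% of all genes tested rose and 29.4% fell. At an unadjusted p under 0.05 the count lower was also 0, and with DESeq2 it was 0 as well. Of the 32, 20 rose by 2-fold or more, a count that was not made over all genes. The median log2 fold change of the members was 1.23, against -0.01 over all 15973 genes tested. Library totals in place of the scaling moved the median of all genes in this comparison by -0.26, and the members' median stayed 1.24 above it. Over the same step the 5 myoblast markers together stood at 1461 to 1618 CPM on day 2 and at 864 to 976 CPM on day 7. Among them, Cdh15 stood higher on day 7. The processed pseudogene share stood at 2.99 and 2.47% on day 2 and at 3.66 and 3.86% on day 7. The part of the markers and of this share in the rise of the module was not tested. In bulk RNA, fewer cells of a type and less RNA per cell cannot be told apart.

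The highest group mean was that of DM2 at day 7 for 30 of the 32 members, and for 29 of them both of its libraries lay above all 12 others. The counts of highest, next and lowest groups were made for the members alone, with no share of all genes beside them. Eif2ak3 was highest in DM1 at day 7 and Sec23b at day 0. Atf6, the member whose DM2 libraries overlapped others, overlapped DM1 at day 7. The DM2 mean at day 7 was 2-fold or more above the highest other group for 12 members and 1.5-fold or more for 22, with a median of 1.72-fold. That other group was DM1 at day 7 for 17 members, DM3 at day 7 for 9, day 0 for 5 and DM3 at day 2 for 1. The lowest group was DM2 at day 2 for 11 members, DM3 at day 7 for 8, day 0 for 6, DM3 at day 2 for 4, DM1 at day 2 for 2 and DM1 at day 7 for 1.

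**Figure D1:**
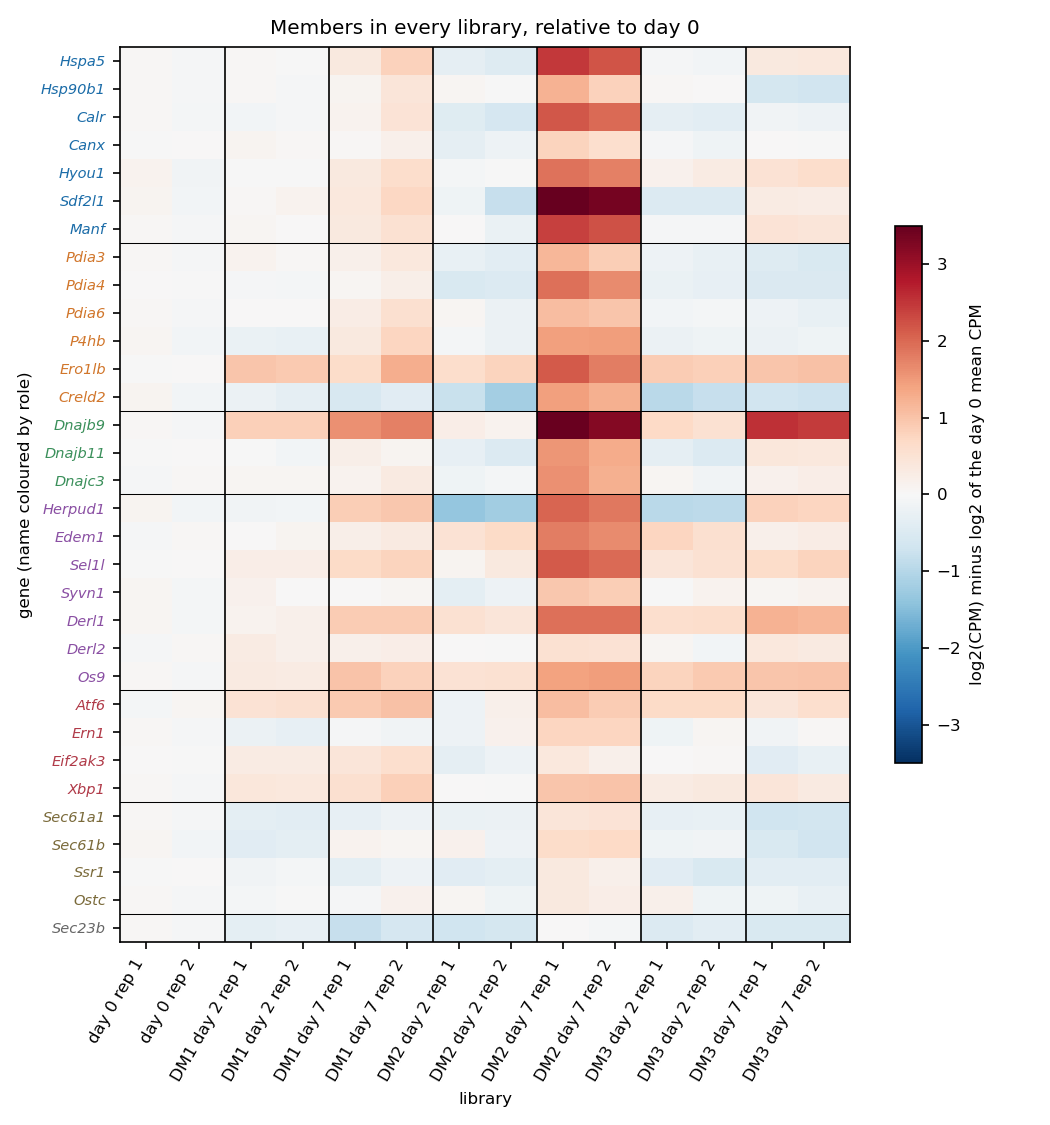
Level of the 32 members tested (rows, grouped by role) in each of the 14 libraries (columns), as log2 of CPM minus log2 of the day 0 mean CPM of that gene. Red is above day 0 and blue below, and the DM2 columns of day 7 are red for nearly every gene, while Sec23b stays near 0 there.

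Among the lumenal chaperones, Hspa5 (BiP, the central chaperone of the lumen; ENSMUSG00000026864, chromosome 2, 34771970 to 34777547) stood at 694 and 662 CPM on day 0, in DM1 at 703 and 667 on day 2 and 866 and 1196 on day 7, in DM2 at 546 and 497 on day 2 and 3751 and 3096 on day 7, and in DM3 at 654 and 639 on day 2 and 861 and 883 on day 7. Its DM2 libraries of day 7 lay far above the other 12, and those of day 2 below them. From day 2 to day 7 in DM2 it rose with log2 2.72 ± 0.14 (6.57-fold, edgeR adjusted p = 2.62e-08). Hsp90b1, the lumenal member of the heat shock family of Hsp90 proteins, stood at 1077 and 1029 CPM on day 0, in DM1 at 1076 and 1021 on day 2 and 1127 and 1420.1 on day 7, in DM2 at 1099 and 1047 on day 2 and 2452 and 1851 on day 7, and in DM3 at 1091 and 1057 on day 2 and 693 and 659 on day 7. It was lowest in DM3 at day 7, with no overlap with any other group, and rose in DM2 with log2 1.00 ± 0.13 (edgeR adjusted p = 4e-05). Its exons overlap an antisense gene, 1810014B01Rik, over 10.3% of their length, and counting by strand is not stated in the sources used here. Calr (calreticulin, a soluble lectin chaperone) stood at 734 and 680.3 CPM on day 0, in DM1 at 656 and 684 on day 2 and 775 and 981 on day 7, in DM2 at 526 and 469 on day 2 and 3205 and 2778 on day 7, and in DM3 at 570.1 and 548 on day 2 and 646 and 622 on day 7. Like Hspa5 it was lowest in DM2 at day 2 and highest in DM2 at day 7, a rise of log2 2.59 ± 0.12 (edgeR adjusted p = 1.17e-08). A pseudogene named Calr-ps held 0 to 75.9 counts per library.

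The other lumenal chaperones spanned the smallest and the largest change of that role. Sdf2l1, a partner of the J-domain proteins (ENSMUSG00000022769, chromosome 16, 17130138 to 17132383), stood at 9.14 and 8.04 CPM on day 0, in DM1 at 8.90 and 9.38 on day 2 and 11.2 and 14.1 on day 7, in DM2 at 7.77 and 4.89 on day 2 and 97.5 and 87.9 on day 7, and in DM3 at 6.17 and 6.19 on day 2 and 10.5 and 10.3 on day 7. Its counts ran from 128 to 2590 per library, the fewest of any tested member in the lowest library. The DM2 libraries of day 7 lay above all others, with a mean 7.35-fold that of the next group, and the change from day 2, log2 3.87 ± 0.19 (14.6-fold, edgeR adjusted p = 1.81e-08), was the largest of the module. Manf, a secreted factor that binds Hspa5, rose from 88.7 and 75.0 to 466 and 410.2 CPM, with log2 2.42 ± 0.11. Hyou1, which exchanges the nucleotide of Hspa5, rose from 158 and 164 to 626 and 567 CPM, with log2 1.89 ± 0.11. Canx, the membrane-bound counterpart of Calr, changed least of the chaperones, from 492 and 531 to 1040.3 and 909 CPM (log2 0.93 ± 0.089). Per kilobase of exon, Calr at 1039 CPM/kb and Hspa5 at 809.6 CPM/kb were the most abundant members in DM2 at day 7, and Hsp90b1 (261 CPM/kb) and Calr (246 CPM/kb) at day 0.

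Disulfide isomerases make and rearrange the disulfide bonds of clients. Pdia4 stood at 138 and 137 CPM on day 0, in DM1 at 134 and 131 on day 2 and 143 and 159 on day 7, in DM2 at 94.0 and 98.4 on day 2 and 526 and 430.2 on day 7, and in DM3 at 116 and 112 on day 2 and 96.5 and 95.8 on day 7. Its DM2 libraries of day 7 lay far above the other 12, and the rise from day 2 was log2 2.31 ± 0.099 (edgeR adjusted p = 7e-09). Pdia3, which works with the lectin chaperones, stood at 417 and 389 CPM on day 0, in DM1 at 441 and 414 on day 2 and 460.1 and 521 on day 7, in DM2 at 334 and 310.0 on day 2 and 902 and 728 on day 7, and in DM3 at 359.6 and 337 on day 2 and 293 and 277 on day 7. In DM3 at day 7 both libraries were below all others. P4hb, also a subunit of collagen prolyl hydroxylase, stood at 718 and 642 CPM on day 0, in DM1 at 578 and 567 on day 2 and 857 and 1141 on day 7, in DM2 at 651 and 594 on day 2 and 1826 and 1862 on day 7, and in DM3 at 588 and 614 on day 2 and 593 and 612 on day 7. DM1 at day 7 was its next highest group, with replicates of unequal level. Pdia6 moved from 329.8 and 269.8 to 665 and 608 CPM over time in DM2 (log2 1.09 ± 0.12). Creld2, an isomerase-like stress gene, stood at 61.9 and 54.6 CPM on day 0, in DM1 at 50.5 and 46.7 on day 2 and 39.5 and 44.5 on day 7, in DM2 at 33.8 and 25.4 on day 2 and 159 and 139 on day 7, and in DM3 at 30.4 and 33.5 on day 2 and 36.7 and 35.3 on day 7. It fell below day 0 in each medium at day 7 except DM2, where it rose with log2 2.33 ± 0.13 over day 2 (edgeR adjusted p = 5.25e-08). Ero1lb, an oxidase that recharges the isomerases, was the scarcest tested member per length (2.96 CPM/kb in DM2 at day 7). It stood at 4.92 and 5.04 CPM on day 0, in DM1 at 9.82 and 9.41 on day 2 and 7.84 and 11.9 on day 7, in DM2 at 7.65 and 8.47 on day 2 and 22.1 and 17.4 on day 7, and in DM3 at 9.16 and 8.84 on day 2 and 9.72 and 10.2 on day 7, and both day 0 libraries were below all 12 others.

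The J-domain proteins direct Hspa5 to its clients. Dnajb9, which also holds Ern1 inactive (ENSMUSG00000014905, chromosome 12, 44205559 to 44210326), stood at 10.9 and 10.3 CPM on day 0, in DM1 at 18.8 and 18.7 on day 2 and 32.3 and 36.2 on day 7, in DM2 at 12.3 and 11.5 on day 2 and 116 and 98.0 on day 7, and in DM3 at 17.1 and 15.2 on day 2 and 62.9 and 57.4 on day 7. Every group in a differentiation medium was above day 0 in both libraries, and DM3 at day 7 came next to DM2 at day 7. Its rise over time was log2 3.17 ± 0.11 in DM2 (edgeR adjusted p = 2.04e-09), log2 1.90 ± 0.11 in DM3 (adjusted p = 6.6e-08) and log2 0.87 ± 0.11 in DM1 (adjusted p = 5.17e-05). Dnajb11, a soluble lumenal member of the family, stood at 51.9 and 52.8 CPM on day 0, in DM1 at 51.8 and 48.7 on day 2 and 60.4 and 56.2 on day 7, in DM2 at 43.3 and 37.9 on day 2 and 153 and 128 on day 7, and in DM3 at 42.2 and 37.5 on day 2 and 68.9 and 67.1 on day 7. Its DM2 libraries of day 7 lay above the other 12, and those of DM3 at day 7 came next. Dnajc3 rose from 76.5 and 80.5 to 257 and 199.7 CPM in DM2 (log2 1.54 ± 0.12), and stayed between 76.5 and 105 CPM in the other 12 libraries.

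Among the degradation genes, Sel1l, Derl1 and Os9 had all 12 libraries of the differentiation media above both of day 0. Herpud1 and Syvn1 were lowest in DM2 at day 2. Herpud1, a membrane scaffold of the ubiquitin ligase complex (ENSMUSG00000031770, chromosome 8, 94386438 to 94395377), stood at 66.9 and 59.2 CPM on day 0, in DM1 at 57.9 and 59.1 on day 2 and 114 and 121 on day 7, in DM2 at 24.6 and 27.3 on day 2 and 257 and 225 on day 7, and in DM3 at 33.1 and 33.7 on day 2 and 111 and 107 on day 7. It was lowest at day 2 in DM2 and DM3, below day 0 in every library, and rose from there with log2 3.22 ± 0.096 in DM2 (9.29-fold, edgeR adjusted p = 7.97e-10) and with log2 1.71 ± 0.091 in DM3 (adjusted p = 4.29e-08). Edem1, which picks out misfolded glycoproteins, stood at 71.2 and 75.4 CPM on day 0, in DM1 at 73.4 and 78.6 on day 2 and 84.4 and 91.8 on day 7, in DM2 at 104 and 117 on day 2 and 254 and 229 on day 7, and in DM3 at 124 and 108 on day 2 and 82.4 and 88.1 on day 7. At day 2 both cocktail media were above day 0 and above DM1, and at day 7 DM3 overlapped DM1. Sel1l, the adaptor of the ligase, stood at 98.3 and 100.2 CPM on day 0, in DM1 at 116 and 117 on day 2 and 158 and 171 on day 7, in DM2 at 107 and 127 on day 2 and 438 and 392 on day 7, and in DM3 at 132 and 144 on day 2 and 155 and 170.3 on day 7. Day 0 was its lowest group. Derl1, a channel-like derlin, stood at 171 and 156 CPM on day 0, in DM1 at 177 and 184 on day 2 and 303 and 305 on day 7, in DM2 at 236 and 217 on day 2 and 619.9 and 618 on day 7, and in DM3 at 244 and 249 on day 2 and 382 and 368 on day 7. All 12 libraries of the differentiation media were above both day 0 libraries. Os9, a lectin that binds trimmed glycans, stood at 91.8 and 85.5 CPM on day 0, in DM1 at 110.5 and 109 on day 2 and 178 and 156 on day 7, in DM2 at 126 and 129 on day 2 and 237 and 245 on day 7, and in DM3 at 151 and 166 on day 2 and 174 and 175 on day 7, likewise with day 0 the lowest. Syvn1, the ligase itself, rose from 34.9 and 39.4 to 85.8 and 80.7 CPM in DM2 (log2 1.16 ± 0.091) and lay between 42.3 and 48.7 CPM in all libraries of day 0, DM1 and DM3. Derl2 kept a narrow range, with 38.8 CPM in the lowest library and 60.1 CPM in the highest. Derl3, the third derlin (ENSMUSG00000009092, chromosome 10, 75893413 to 75895941), had 1 count in 1 library and 0 in the other 13. A count of 0 allows up to 3 counts, or 0.102 to 0.132 CPM per library (counting error only), and the filter on low counts left it out of the tests.

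**Figure D2:**
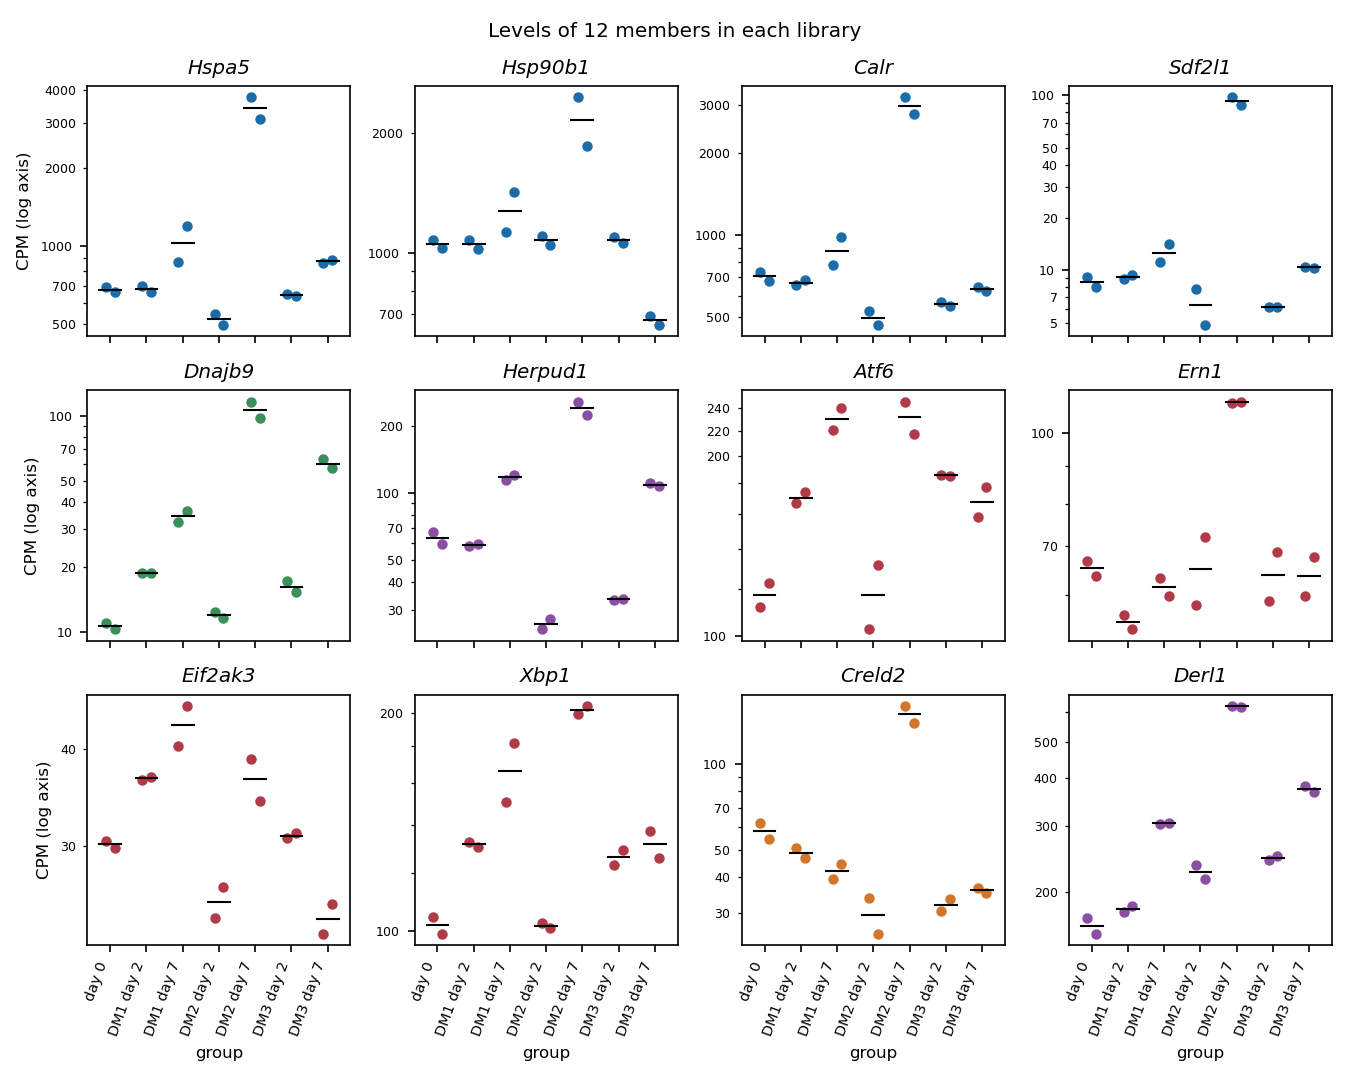
CPM on a log axis in each library (points) and the mean of the 2 libraries of a group (lines) for 12 members, over the 7 groups. Hspa5, Calr and Sdf2l1 stand apart in DM2 at day 7, Dnajb9 and Herpud1 are also raised in the other media at day 7, Atf6 overlaps between DM1 and DM2 at day 7, and Eif2ak3 is highest in DM1 at day 7.

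The sensor genes rose in DM2 as well, with smaller values than most chaperones. Atf6, a transcription factor freed by proteolysis, stood at 112 and 123 CPM on day 0, in DM1 at 167 and 174 on day 2 and 221 and 240.4 on day 7, in DM2 at 103 and 131 on day 2 and 246 and 218 on day 7, and in DM3 at 186 and 185 on day 2 and 158 and 178 on day 7. DM1 and DM2 at day 7 overlapped, and DM2 at day 2 overlapped day 0. Ern1, the kinase and RNase that splices the Xbp1 message, stood at 66.8 and 63.6 CPM on day 0, in DM1 at 56.2 and 53.8 on day 2 and 63.2 and 59.8 on day 7, in DM2 at 58.1 and 72.0 on day 2 and 110.1 and 110.4 on day 7, and in DM3 at 58.8 and 68.8 on day 2 and 59.8 and 67.6 on day 7. Both DM2 libraries of day 7 lay above the other 12, with log2 0.76 ± 0.11 over day 2 (edgeR adjusted p = 8.91e-05). Eif2ak3 (PERK, the kinase of the translation factor eIF2), stood at 30.5 and 29.8 CPM on day 0, in DM1 at 36.5 and 36.8 on day 2 and 40.3 and 45.4 on day 7, in DM2 at 24.2 and 26.5 on day 2 and 38.8 and 34.2 on day 7, and in DM3 at 30.7 and 31.1 on day 2 and 23.1 and 25.2 on day 7. DM1 at day 7 was above all other libraries, and DM2 at day 2 and DM3 at day 7 shared the lowest values. An antisense gene, Gm43292, overlaps 8.05% of its exon length. Xbp1 stood at 104 and 99.0 CPM on day 0, in DM1 at 133 and 130.5 on day 2 and 151 and 182 on day 7, in DM2 at 102 and 101 on day 2 and 199.5 and 204 on day 7, and in DM3 at 123 and 129 on day 2 and 137 and 126 on day 7, highest in DM2 at day 7 with no overlap. Its rise over day 2 there was log2 0.99 ± 0.091 and that of Atf6 log2 0.99 ± 0.12 (edgeR adjusted p = 2.24e-06 and 1.86e-05). Gene counts do not separate the spliced from the unspliced Xbp1 message, nor active from inactive sensor.

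Translocation and export genes had the smallest median changes of the roles from day 2 to day 7 in DM2. Sec61a1, the pore of the channel, stood at 314 and 294 CPM on day 0, in DM1 at 239.6 and 234 on day 2 and 249 and 267 on day 7, in DM2 at 258 and 263 on day 2 and 408 and 421 on day 7, and in DM3 at 247 and 256 on day 2 and 187 and 196 on day 7. Its antisense neighbour Gm44170 overlaps 8.16% of its exons. Sec61b, a small subunit of the channel, stood at 53.6 and 47.8 CPM on day 0, in DM1 at 38.2 and 39.7 on day 2 and 55.1 and 53.1 on day 7, in DM2 at 55.9 and 44.9 on day 2 and 79.8 and 83.0 on day 7, and in DM3 at 45.6 and 46.2 on day 2 and 35.1 and 32.1 on day 7. Both were lowest in DM3 at day 7 and highest in DM2 at day 7, with no overlap with other groups at either end. Ssr1, of the translocon-associated complex, stood at 242 and 249.5 CPM on day 0, in DM1 at 228 and 232 on day 2 and 196 and 216 on day 7, in DM2 at 186 and 192 on day 2 and 314 and 279 on day 7, and in DM3 at 187 and 168 on day 2 and 189.5 and 189 on day 7. Day 0 was its next highest group after DM2 at day 7. Ostc, a subunit of the oligosaccharyltransferase, moved from 75.5 and 64.6 to 90.1 and 83.7 CPM in DM2 (log2 0.31 ± 0.11, edgeR adjusted p = 0.0359), the smallest change of the module. It no longer passed without DM2 day 2 replicate 2 or either DM2 library of day 7 (adjusted p of 0.0596 to 0.237), or with library totals. Sec23b, a coat protein of COPII vesicles, stood at 76.2 and 70.8 CPM on day 0, in DM1 at 57.9 and 60.1 on day 2 and 42.3 and 48.8 on day 7, in DM2 at 45.6 and 48.2 on day 2 and 74.3 and 69.6 on day 7, and in DM3 at 52.5 and 56.5 on day 2 and 51.1 and 50.8 on day 7. It was below day 0 in every library of DM1, of DM3 and of DM2 at day 2, and overlapped day 0 in DM2 at day 7. By role, the median log2 rise from day 2 to day 7 in DM2 was 2.42 for the 7 chaperones, 1.79 for the 3 J-domain proteins, 1.45 for the 6 disulfide genes, 1.16 for the 7 degradation genes tested, 0.87 for the 4 sensor genes (Xbp1 among them), 0.66 for the 4 translocation genes and 0.62 for Sec23b.

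The same time step was smaller in the other media. In DM1, 14 of 32 members rose and 1 fell from day 2 to day 7, where 16.8% of all genes rose and 17.5% fell. Herpud1 (log2 1.01 ± 0.089), Dnajb9 (log2 0.87 ± 0.11) and P4hb (log2 0.80 ± 0.12) rose most, and Sec23b fell (log2 -0.37 ± 0.087). Hspa5 rose with log2 0.59 ± 0.13, but the libraries of DM1 at day 7 differed, replicate 1 minus replicate 2 having a median log2 of -0.17 over the members. The libraries of DM2 at day 7 differed by a like amount the other way, with a median log2 of 0.16. Without DM1 day 7 replicate 2, 8 members passed. Leaving out 1 library, DM1 day 2 replicate 1 or 2 or DM1 day 7 replicate 1 or 2, ended the call of Calr, Pdia6, Atf6, Xbp1, Manf, Sec23b, Hspa5 or Hyou1 in at least 1 of these cases, with adjusted p of 0.0503 to 0.218. In DM3, 9 of 32 members rose and 6 fell, against 22.6% and 25.3% of all genes, so the share called was near that of all genes. With library totals, which move the median of all genes by -0.19 here, the split was 6 and 11. Dnajb9 (log2 1.90 ± 0.11), Herpud1 (log2 1.71 ± 0.091) and Dnajb11 (log2 0.77 ± 0.10) rose most. Hsp90b1 (log2 -0.67 ± 0.13), Sec61b (log2 -0.45 ± 0.10), Edem1 (log2 -0.44 ± 0.096), Sec61a1 (log2 -0.39 ± 0.074), Eif2ak3 (log2 -0.36 ± 0.093) and Pdia3 (log2 -0.29 ± 0.11) fell. Hyou1, Pdia3, Hspa5 and Eif2ak3 each lost the call without at least 1 of DM3 day 2 replicate 1 and 2 and DM3 day 7 replicate 1 and 2, at an adjusted p of 0.0596 to 0.192.

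**Figure D3:**
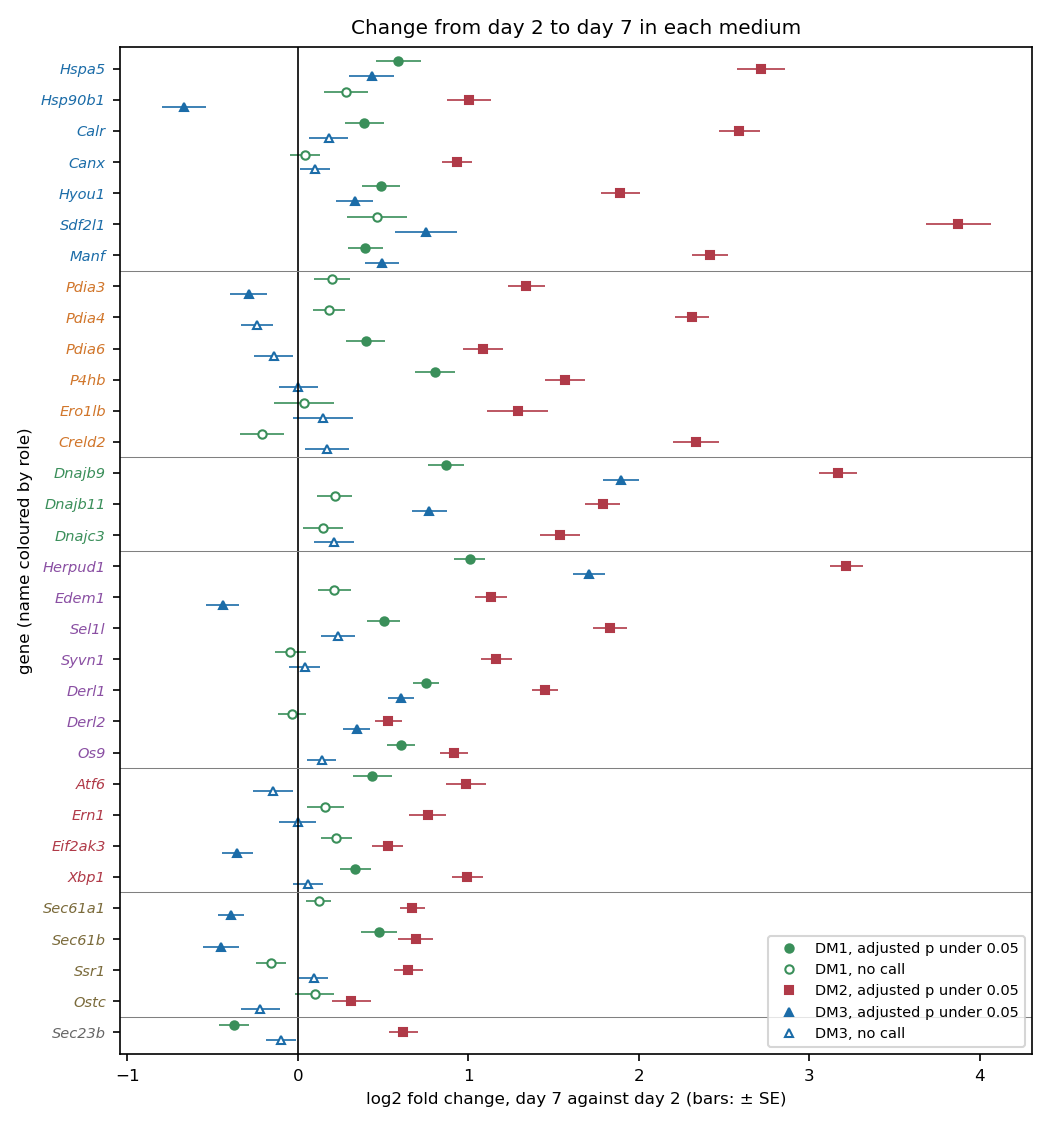
Log2 fold change from day 2 to day 7 of each tested member in DM1 (circles), DM2 (squares) and DM3 (triangles), with bars of ± SE. Filled symbols passed the test at an adjusted p under 0.05. The squares lie to the right of both other symbols for all 32 members, from 0.31 for Ostc to 3.87 for Sdf2l1.

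Whether the time step itself differed between media was tested with an interaction term in the same model. The rise in DM2 exceeded that in DM3 for 31 of 32 members and fell short for 0, where 19.8% of all genes had a larger and 20% a smaller change in DM2. At an unadjusted p under 0.05, and with DESeq2, 0 members had a smaller change. The difference had a median log2 of 1.19 over the members and -0.09 over all genes, and was largest for Sdf2l1 (log2 3.12 ± 0.25), Pdia4 (log2 2.56 ± 0.14) and Calr (log2 2.41 ± 0.16). Derl2 was the member that did not pass (log2 0.19 ± 0.12, edgeR adjusted p = 0.226). Leaving out DM2 day 2 replicate 2, DM2 day 7 replicate 1, DM3 day 2 replicate 1 or DM3 day 7 replicate 2 ended the call of Ostc, with adjusted p of 0.072 to 0.0774. Against DM1, the rise in DM2 was larger for 29 of 32 members and smaller for 0, where 23% of all genes had a larger and 26% a smaller change. The counts smaller were 0 at an unadjusted p under 0.05 and with DESeq2 too. Sdf2l1 (log2 3.41 ± 0.25), Creld2 (log2 2.54 ± 0.19) and Dnajb9 (log2 2.30 ± 0.15) had the largest differences, and the median was 0.96. Eif2ak3, Sec61b and Ostc did not pass, with log2 differences of 0.30, 0.22 and 0.21. Leaving out 1 library, DM1 day 2 replicate 1 or 2, DM1 day 7 replicate 1 or 2, DM2 day 2 replicate 1 or 2 or DM2 day 7 replicate 1 or 2, ended the call of Os9 or Atf6 in at least 1 of these cases, with adjusted p of 0.0545 to 0.177. The 2 tests share the DM2 libraries.

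Against day 0, the module at day 7 was raised in DM2 and mixed in DM3. In DM2 at day 7, 30 of 32 members were higher than at day 0 and 0 lower (24.5% and 30.9% of all genes). At an unadjusted p under 0.05, and with DESeq2, 31 were higher and 0 lower. With library totals 28 were higher and 1 lower. Sdf2l1 (log2 3.43 ± 0.18), Dnajb9 (log2 3.34 ± 0.11) and Hspa5 (log2 2.34 ± 0.14) rose most, and Ostc (log2 0.28 ± 0.11, edgeR adjusted p = 0.055) and Sec23b (log2 -0.03 ± 0.086, adjusted p = 0.787) did not pass. Eif2ak3 and Ssr1 each lost the call without at least 1 of DM2 day 7 replicate 1 and day 0 replicate 1 and 2, at an adjusted p of 0.0557 to 0.19. In DM1 at day 7, 18 were higher and 4 lower (27.7% and 25.8% of all genes), with a median log2 of 0.30 against 0.06 over all genes. Dnajb9 (log2 1.69 ± 0.11), Ero1lb (log2 0.99 ± 0.18) and Atf6 (log2 0.98 ± 0.12) rose most. Sec23b (log2 -0.69 ± 0.087), Creld2 (log2 -0.47 ± 0.13), Ssr1 (log2 -0.26 ± 0.086) and Sec61a1 (log2 -0.24 ± 0.073) were lower. The calls of Calr, Pdia3, Creld2, Edem1, Sec61a1, Ssr1, Sdf2l1 and Pdia6 were lost without at least 1 of DM1 day 7 replicate 1 and 2 and day 0 replicate 1 and 2 (adjusted p then 0.0608 to 0.391). In DM3 at day 7, 13 were higher and 9 lower (28.9% and 30.1% of all genes), and with library totals 8 and 13, a scaling that moves the median of all genes by -0.21. Dnajb9 (log2 2.51 ± 0.11), Derl1 (log2 1.20 ± 0.078) and Ero1lb (log2 1.00 ± 0.18) rose most. The 9 lower were Creld2 (log2 -0.69 ± 0.13), Sec61a1 (log2 -0.67 ± 0.074), Hsp90b1 (log2 -0.64 ± 0.13), Sec61b (log2 -0.59 ± 0.10), Sec23b (log2 -0.53 ± 0.086), Pdia4 (log2 -0.51 ± 0.095), Pdia3 (log2 -0.50 ± 0.11), Ssr1 (log2 -0.38 ± 0.086) and Eif2ak3 (log2 -0.32 ± 0.092). Leaving out 1 library, DM3 day 7 replicate 1 or 2 or day 0 replicate 1 or 2, ended the call of Hspa5 or Eif2ak3 in at least 1 of these cases, with adjusted p of 0.0515 to 0.138. These comparisons share the day 0 libraries.

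At day 2 the counts of members called in DM1 and DM3 were near the shares of all genes, so they are no result about the module. In DM1, 6 of 32 members were higher and 3 lower than at day 0, against 15.2% and 14.6% of all genes. Ero1lb (log2 0.95 ± 0.18), Dnajb9 (log2 0.82 ± 0.11) and Atf6 (log2 0.54 ± 0.12) rose most, and Sec61b (log2 -0.38 ± 0.10), Sec61a1 (log2 -0.36 ± 0.074) and Sec23b (log2 -0.32 ± 0.086) fell. Without DM1 day 2 replicate 1 or 2, 4 and 5 members passed in all. Eif2ak3, Sec61b, Sec23b, Os9 and Xbp1 each lost the call without at least 1 of DM1 day 2 replicate 1 and 2 and day 0 replicate 1 and 2, at an adjusted p of 0.0575 to 0.151. In DM2, 4 were higher and 13 lower, against 23.5% and 26.2% of all genes, and with library totals 5 and 9. Herpud1 (log2 -1.28 ± 0.091, edgeR adjusted p = 4.34e-07) and Creld2 (log2 -0.98 ± 0.13, adjusted p = 6.34e-05) fell most. Ero1lb (log2 0.69 ± 0.18), Edem1 (log2 0.59 ± 0.096), Os9 (log2 0.53 ± 0.083) and Derl1 (log2 0.47 ± 0.077) rose. Without day 0 replicate 1, 11 members passed. The calls of Hspa5, Canx, Pdia3, Syvn1, Eif2ak3, Sec61a1 and Dnajb11 were lost without at least 1 of DM2 day 2 replicate 1 and 2 and day 0 replicate 1 and 2 (adjusted p then 0.0533 to 0.21). In DM3, 8 were higher and 9 lower, against 25.5% and 25.4% of all genes. Herpud1 (log2 -0.92 ± 0.09) and Creld2 (log2 -0.87 ± 0.13) again fell most. Ero1lb (log2 0.85 ± 0.18), Os9 (log2 0.84 ± 0.084), Edem1 (log2 0.66 ± 0.096), Atf6 (log2 0.66 ± 0.12), Dnajb9 (log2 0.61 ± 0.11), Derl1 (log2 0.59 ± 0.077), Sel1l (log2 0.48 ± 0.098) and Xbp1 (log2 0.31 ± 0.09) rose. Leaving out 1 library, DM3 day 2 replicate 1 or 2 or day 0 replicate 1 or 2, ended the call of Calr, Sdf2l1, Pdia4, Sec61a1, Xbp1 or Dnajb11 in at least 1 of these cases, with adjusted p of 0.0515 to 0.205.

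DM3 against DM1 asks what the cocktail changed in 2% HS. At day 2, 3 members were higher and 6 lower in DM3 (17.6% and 19.4% of all genes), and with library totals 3 and 10. Herpud1 (log2 -0.81 ± 0.09), Edem1 (log2 0.61 ± 0.096) and Creld2 (log2 -0.60 ± 0.13) differed most, and Edem1, Os9 (log2 0.53 ± 0.083) and Derl1 (log2 0.45 ± 0.077) were the ones higher. Sdf2l1, Dnajb11 and Derl2 each lost the call without at least 1 of DM1 day 2 replicate 1 and 2 and DM3 day 2 replicate 1 and 2, at an adjusted p of 0.0544 to 0.273. At day 7, 2 were higher and 11 lower in DM3 (22.7% and 25.1% of all genes), and with library totals 1 and 19. That scaling moved the median of all genes by -0.23, while the members' median minus that of all genes was -0.12 under both. The lower were led by Hsp90b1 (log2 -0.91 ± 0.13, edgeR adjusted p = 0.000108) and Eif2ak3 (log2 -0.83 ± 0.093, adjusted p = 1.59e-05). Of the 6 disulfide genes 4 were lower, with Pdia3 at log2 -0.78 ± 0.11 and P4hb at log2 -0.73 ± 0.12. Dnajb9 (log2 0.81 ± 0.10) and Derl1 (log2 0.30 ± 0.077) were higher, Derl1 not so with library totals. The calls of Calr, Atf6 and Xbp1 were lost without at least 1 of DM1 day 7 replicate 2 and DM3 day 7 replicate 1 and 2 (adjusted p then 0.0506 to 0.12). The myotube markers together stood at 1220 to 1432 CPM in DM1 and at 20957 to 21202 CPM in DM3 on that day. Their part in these differences, and that of the higher mitochondrial share in DM3, was not tested.

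DM2 against DM3 sets 10% FCS beside 2% HS under the same cocktail. At day 2, 0 members were higher and 6 lower in DM2, where 6.31% of all genes were higher and 9.98% lower. DESeq2 gave 0 and 6 as well, and at an unadjusted p under 0.05 there were 0 and 12. Atf6 (log2 -0.66 ± 0.12, edgeR adjusted p = 0.00254), Dnajb9 (log2 -0.44 ± 0.11) and Herpud1 (log2 -0.36 ± 0.09) differed most. With only these 2 groups fitted 0 members passed, 1 passed without DM2 day 2 replicate 1, and 2 without DM3 day 2 replicate 2. Leaving out 1 library, DM2 day 2 replicate 1 or 2 or DM3 day 2 replicate 1 or 2, ended the call of Dnajb9, Herpud1, Syvn1, Os9 or Xbp1 in at least 1 of these cases, with adjusted p of 0.0522 to 0.27. By day 7, 31 of 32 members were higher in DM2 and 0 lower, where 25.2% of all genes were higher and 27.5% lower. With DESeq2, and at an unadjusted p under 0.05, 32 were higher and 0 lower. Sdf2l1 (log2 3.16 ± 0.18, 8.91-fold), Pdia4 (log2 2.31 ± 0.099) and Calr (log2 2.24 ± 0.12) differed most, with edgeR adjusted p of 3.92e-08, 3.08e-09 and 1.77e-08. Derl2 (log2 0.19 ± 0.081, adjusted p = 0.0705) did not pass. With DM2 day 7 replicate 1 or DM3 day 7 replicate 1 left out, Atf6 no longer passed (adjusted p of 0.0508 to 0.0555). The myotube markers were lower in DM2 than in DM3 on that day (507 to 530 against 20957 to 21202 CPM), as was the mitochondrial share (3.63 and 3.19% against 5.44 and 5.01%), and their part in the difference was not tested.

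The members with an ERSE or ERSE-II match rose in DM2 from day 2 to day 7 with a median log2 of 1.54 (11 tested), those whose promoter was searched with no match with 0.99 (15 tested), and those with no promoter in the table with 1.22 (6 tested). Since every tested member rose in this step, the classes can be compared by size alone. They also differ in role, as no searched sensor, translocation or export gene had a match. Those roles had the smallest medians in this step (log2 0.87, 0.66 and 0.62). The part of role in the difference between classes was not tested. The largest riser, Sdf2l1, and Dnajb9 had no match in their windows, and Canx and Hsp90b1 had matches with smaller rises. Of the 37 other genes whose RefSeq promoter held ERSE or ERSE-II, 15 were tested, 5 of which rose and 6 fell, with a median log2 of -0.24. These values are a description of the promoter windows.

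Other genes of the pathway, from lists that hold no member, had smaller medians in the same step, apart from the Atf4 branch. Members and lists were chosen with earlier results of these data known, so the medians are set side by side as a description. In DM2 from day 2 to day 7, 17 of 31 other folding factors of the endoplasmic reticulum rose and 3 fell (median log2 0.25), 13 of 29 other degradation factors rose and 2 fell (0.19), and 21 of 32 other translocation and glycosylation factors rose and 2 fell (0.43). For COPII export the counts were 9 and 2 of 24 (0.10), and for other stress sensors and their partners 5 and 2 of 11 (0.37). Cytosolic and mitochondrial chaperones rose in 16 and fell in 3 of 26 (0.39). The Atf4 branch, the arm downstream of Eif2ak3 that also answers to lack of amino acids, rose in 18 and fell in 1 of 21 with a median log2 of 2.19. All genes tested had a median of -0.01, and 25.4% of them rose. The Atf4 branch also rose in 18 of 21 in DM3 (median 0.74, with 22.6% of all genes higher) and 16 of 21 in DM1 (median 1.01, with 16.8% of all genes higher) over the same days. At day 2 against day 0, 0 of 21 were higher and 12 lower in DM1 (median -0.64, with 14.6% of all genes lower). In DM2 the counts were 5 and 15 (-0.73, with 26.2%), and in DM3 3 and 15 (-1.05, with 25.4%). At day 7 against day 0, 19 were higher and 0 lower in DM2 (median 1.57, with 24.5% of all genes higher). In DM1 the counts at day 7 were 10 and 4 (0.18, with 27.7%), and in DM3 9 and 8 (0.007, with 28.9%). Among the other folding factors, with both genes chosen after their values were seen, Ero1l, the close relative of the member Ero1lb, rose with log2 4.22 ± 0.14, and Fkbp10, an isomerase for collagen, fell with -1.58 ± 0.084.

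**Figure D4:**
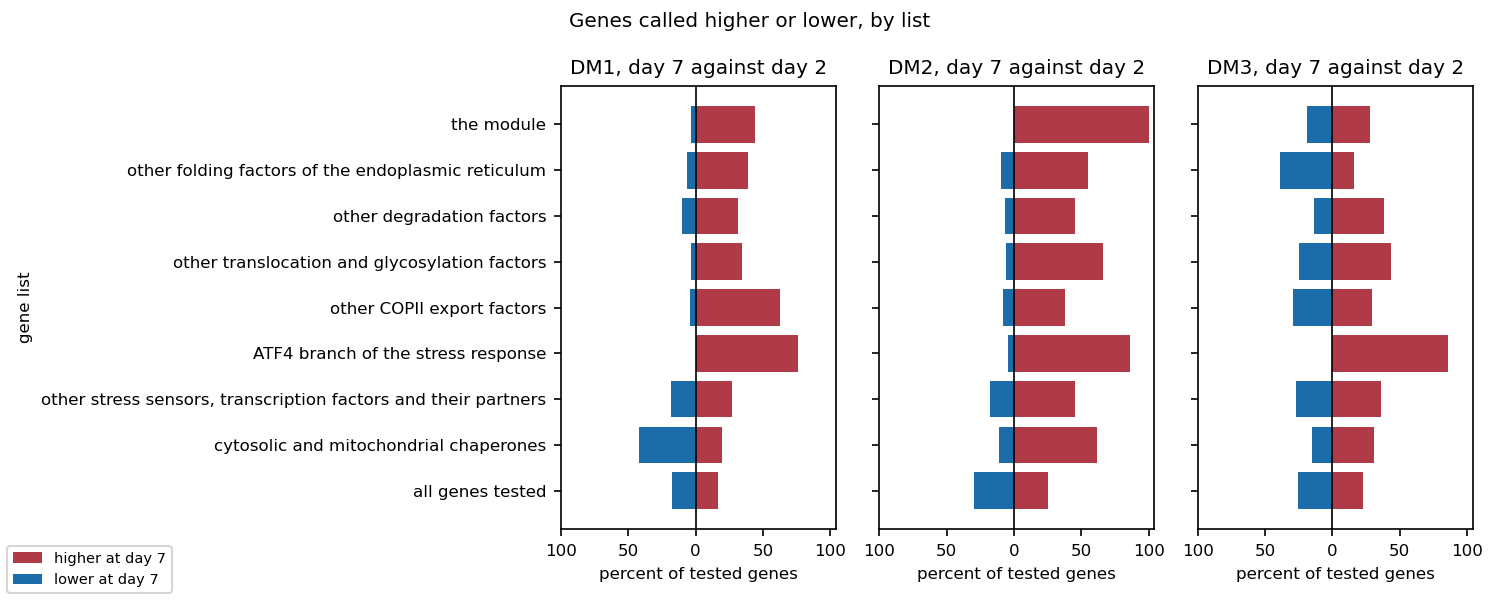
Percent of tested genes called higher (right, red) or lower (left, blue) at day 7 against day 2 in DM1, DM2 and DM3, for the module, 7 other lists and all genes tested. In DM2 the bar of the module reaches 100% on the right, and the bar of the Atf4 branch comes next.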

How the data were processed

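The authors deposited expected counts per gene, the estimated counts of RSEM 1.2.31 after alignment with STAR 2.5.1b, per the submitters' processing notes, on GRCm38 with Gencode vM12, per the series' design text. Counting by strand is not given in the sources used here. All columns matched a sample, with 0 left over. Expected counts were rounded, and edgeR 4.0.16 was run under R 4.3.3 with limma 3.58.1: filterByExpr, TMM scaling, 1 model of all 7 groups (7 residual degrees of freedom), the robust quasi-likelihood test and Benjamini-Hochberg adjustment over 15973 genes at 0.05. CPM uses the TMM scaling, and a standard error is the size of the log2 change over the root of F. The script was tested on simulated data. All 33 members are accounted for, with library values for Hspa5, Hsp90b1, Calr, the sensors and, in each comparison, the 3 called members of largest change and those called against the majority. The members and lists were chosen with earlier results of these data known. Alternatives were DESeq2 1.42.0, library totals, no filter, a replicate block, only the groups compared, a fold of at least 1.5, and leaving out each library.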

Additional observations from a re-analysis of the deposited data

Results flagged for a closer look

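The change from day 2 to day 7 differed between media for most members, by the interaction term of the edgeR model. For 31 members called, the change in DM2 was larger than that in DM3, as for 19.8% of all genes tested. Among them, 6 of 32 tested members (18.8%) rose in DM2 and fell in DM3, both with an adjusted p under 0.05, against 643 of all 15973 genes (4.03%). Since all 32 rose in DM2, these are the 6 members that fell in DM3, where 25.3% of all genes fell. The higher share of opposite changes therefore adds nothing to the rise in DM2. The log2 difference of the changes was 1.67 for Hsp90b1 (edgeR adjusted p = 2.33e-05), 1.63 for Pdia3 (7.02e-06), 1.57 for Edem1 (3.5e-06), 0.88 for Eif2ak3 (0.000222), 1.06 for Sec61a1 (9.58e-06) and 1.14 for Sec61b (7.24e-05). For 29 members called, the change in DM2 was larger than that in DM1, as for 23% of all genes tested. Sec23b, 1 of 32 (3.12%, against 5.3% of all genes), rose in DM2 and fell in DM1, with a log2 difference of 0.99 (edgeR adjusted p = 3.63e-05). It was likewise the 1 member that fell in DM1, where 17.5% of all genes fell.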

How the results depend on the processing

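Of 15 counts of members called, 5 stayed within 1.5 times under every alternative run: DM2 at day 7 against day 0, against DM2 at day 2 and against DM3, and both differences of change over time. Of 5376 single-gene values under alternatives, 5001 kept their side of the threshold, 310 lost the call and 65 gained it. Among values called in the main run or the alternative, 0 turned direction. Turns of direction among values called in neither were not counted. Asking for at least 1.5-fold left 2 members in DM1 at day 2 against day 0, 10 in DM1 at day 7, 5 in DM2 at day 2, 8 in DM3 at day 2 and 10 in DM3 at day 7. It left 6 in DM1 and 6 in DM3 from day 2 to day 7, 3 and 8 for DM3 against DM1 at day 2 and day 7, and 1 for DM2 against DM3 at day 2. The share of all genes that passed at 1.5-fold was not counted. Library totals gave 20 for DM3 against DM1 at day 7, and fitting only the groups compared gave 0 for DM2 against DM3 at day 2. For DM3 against DM1 at day 7, library totals moved all genes alike (median -0.23, members minus all genes -0.12 under both scalings). The cause of the other changes was not tested, beyond the stricter threshold that at least 1.5-fold sets.

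Leaving out 1 library at a time, one of them (DM3 day 2 replicate 2) also for comparisons that do not hold it, a choice made after seeing the data, gave 4 to 10 members for DM1 at day 2 against day 0, 16 to 22 for DM1 at day 7, 11 to 17 for DM2 at day 2, 28 to 31 for DM2 at day 7, 12 to 14 for DM3 at day 2 and 20 to 22 for DM3 at day 7. From day 2 to day 7 it gave 8 to 16 in DM1, 31 to 32 in DM2 and 12 to 14 in DM3. DM3 against DM1 had 6 to 8 at day 2 and 11 to 14 at day 7, and DM2 against DM3 had 1 to 5 and 30 to 31. The differences of change had 30 to 31 against DM3 and 27 to 29 against DM1.

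Replicate numbers were not used as pairs in the main model. Over 21 pairs of groups, deviations of same-numbered libraries correlated between -0.63 and 0.52, and 2 pairs were over 0.1. With 2 libraries a group, these correlations cannot exclude pairing. With a replicate block the counts were 9, 22, 17, 31, 16 and 22 against day 0, in the order DM1 day 2, DM1 day 7, DM2 day 2, DM2 day 7, DM3 day 2 and DM3 day 7. They were 15, 32 and 15 for the time step in DM1, DM2 and DM3, 10 and 14 for DM3 against DM1, 6 and 31 for DM2 against DM3, and 31 and 28 for the differences of change. Derl3, with 1 count in all, was below the depth needed for any test.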
